A study of Homo sapiens with 9 samples.

Results

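The genes described here encode the subunits of the 5 oxidative phosphorylation (OXPHOS) complexes of mitochondria, taken by gene symbol: the NDUF subunits of complex I, SDHA to SDHD of complex II, the UQCR genes and CYC1 of complex III, COX4 to COX8 of complex IV, the ATP5F, ATP5M and ATP5P genes of complex V, and the genes of mitochondrial DNA (MT-ND, MT-CYB, MT-CO and MT-ATP). Of the 14943 genes in the count table, 100 matched. They comprised 83 subunits encoded in the nucleus, 13 encoded by mitochondrial DNA, 2 read-through transcripts and 2 pseudogenes, and the last 4 were kept apart. NDUFA4 and NDUFA4L2, whose names place them in complex I, were counted with complex IV. The nuclear subunits then numbered 37 in complex I, 4 in complex II, 10 in complex III, 15 in complex IV and 17 in complex V, and the mitochondrial ones 7, 0, 1, 3 and 2.

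Polyadenylated RNA was sequenced from SH-Sy5y cells, an established human neuroblastoma line, 48 h after transfection of a mimic of the microRNA miR-1229-3p. Each of 3 groups held 3 libraries. Transfections used 40 pmol of negative control oligonucleotide alone for Ctrl, 20 pmol each of mimic and control oligonucleotide for 10 nM, and 40 pmol of mimic without control oligonucleotide for 20 nM. The labels give replicate numbers 1 to 3 and do not say whether the libraries came from separate cultures, so the p-values measure the spread between these libraries, which may be partly technical.

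Complexes I to IV pass electrons from NADH and succinate to oxygen. Complexes I, III and IV, but not complex II, pump protons across the inner mitochondrial membrane. Complex V, the ATP synthase, lets the protons back to make ATP. Complex II is built from nuclear genes alone, whereas the other complexes need products of both genomes. Nuclear subunit mRNAs are transcribed gene by gene and translated in the cytosol, while the mitochondrial ones are cut out of long precursors transcribed from both strands of mitochondrial DNA.

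A microRNA pairs through its seed, bases 2 to 8, with matching letters in the 3′ UTR of an mRNA. The mature strand and the matching letters in some subunit mRNAs are shown so that the values below can be read against them, with the seed or its match in capitals. The mature sequence and its position, chr5:179798278-179798300 on the minus strand, are RefSeq's (GRCh38.p14), and the sites were found in GENCODE 44 transcripts.
miR-1229-3p: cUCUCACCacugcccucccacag
NDUFA9: actgggccaggGGTGAGAAgggcagtctta
NDUFB2: tacaagagccaGGTGAGAAtttcaaggatt
NDUFS7: gcctgtcccctGTGAGAAgtcggcgatgt
SDHC: ttctcttcattGGTGAGAgcccaggccat
NDUFV3: acattttcattGGTGAGAttcggaagagg
NDUFS1: gcatatcacatGGTGAGAgagggagcaag
NDUFA9 and NDUFB2 hold the longest form, an 8-mer (GGTGAGAA), at chr12:4693516-4693523 and chr7:140706569-140706576. The NDUFB2 match lies in the 110-base 3′ UTR of its canonical transcript and not in its longest annotated 3′ UTR. The others printed are 7-mers, at chr19:1393498-1393504 in NDUFS7, chr1:161362889-161362895 in SDHC, chr21:42910467-42910473 in NDUFV3 and chr2:206120065-206120071 in NDUFS1. The NDUFS7 match, like that of NDUFB9, was found in the longest but not in the canonical 3′ UTR. On the sense strand of the longest annotated 3′ UTR, 10 of the 85 matched genes with a UTR of at least 50 bases held GGTGAGAA, GGTGAGA or GTGAGAA, or 11.8%. The same letters were present in 3115 of 13778 such genes of the whole table, or 22.6%. The UTRs of the subunit genes were short, with a median of 413 bases against 1552 bases. The other 5 of the 10 were ATP5F1E and NDUFB5, each with 2 matches, COX6B2, and NDUFB9 and UQCRB, which also hold an 8-mer. In canonical 3′ UTRs, 9 of 84 members held a match (10.7%), with NDUFB2 added and NDUFS7 and NDUFB9 absent, against 20.9% of all such genes.

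Library totals ranged from 17423969 to 28192775 counts. Values are given as CPM, counts scaled to a common library size, after TMM scaling (edgeR's correction for library composition), and fold changes as log2 with their standard error (SE). They come from an edgeR quasi-likelihood fit over all 14943 genes with 1 surrogate variable, a covariate estimated from the data for unlabelled differences between libraries. A gene was called at a Benjamini-Hochberg adjusted p under 0.05. The dose trend takes the mimic concentration as a number, and its fold change is per 20 nM. The 20 nM library of replicate 3 stood apart, at 47.4 on a first principal component holding 30.4% of the variance, where the other libraries lay between -17.1 and 7.72. Results that rest on it are therefore also given without it. In the fit by group, the surrogate variable was 0.907 for that library and -0.242 to 0.0602 for the others. The variable thus mainly marked that library. Fitted changes at 20 nM can differ in sign from the means in CPM. For COX7B the fitted change was 0.17, with means of 43.3 CPM in Ctrl and 36.8 CPM at 20 nM. All 11 neuroblastoma markers were in the table, with a summed level of 5930 to 6930 CPM, although TH was below 1 CPM in every library. Of 14 markers of other cell types 7 were in the table, none of them called in the dose trend, and their sum ranged from 54.8 to 69.0 CPM in Ctrl, 53.5 to 78.0 CPM at 10 nM and 48.1 to 69.8 CPM at 20 nM. In bulk RNA, fewer cells of a type and less RNA per cell cannot be told apart.

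Most nuclear subunit mRNAs lay slightly above Ctrl. The mitochondrial ones mostly lay below it at 10 nM and were mixed at 20 nM. Few single genes passed the test. At 10 nM, none of the 100 genes was called by edgeR, where 0.649% of all genes were. An unadjusted p under 0.05 was found for 12 of them, against 13.9% of all genes, and DESeq2 also called 0. At 20 nM 5 were called, 4 higher and 1 lower, against 13.9% of all genes, 7.8% called higher and 6.08% called lower. In the dose trend 14 were called, 13 higher and 1 lower, against 17.6% of all genes. The 13 called higher were all nuclear, or 15.7% of the 83, where 9.92% of all genes were called higher and 7.64% lower. Without 20 nM replicate 3, 8 of the 83 were called higher in the trend, against 1391 of the 14943 genes, a similar share. Between 20 nM and 10 nM only NDUFA6 was called, against 2.79% of all genes. The counts leaned on single libraries and on the surrogate variable, as did those over all genes, which are given in the last section. Without 20 nM replicate 3, 17.8% of all genes were called at 20 nM and 17.0% in the dose trend. With no surrogate variable 1 member, NDUFA6 in both cases, was called at 20 nM and in the dose trend, while leaving out 1 library at a time gave 1 (without 20 nM replicate 2) to 12 (without 20 nM replicate 3) and 4 (without 20 nM replicate 2) to 31 (without 20 nM replicate 1). Without Ctrl replicate 1 they were 3 and 6, and at 20 nM without 20 nM replicate 1 the count was 3.

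The median log2 fold change of the nuclear subunits was 0.053 at 10 nM, 0.072 at 20 nM and 0.084 in the dose trend. Those of the mitochondrial subunits were -0.162, -0.095 and -0.105, and the medians over all genes were within 0.002 of 0. A positive fold change was fitted for 65 of 83 nuclear subunits at 10 nM and 62 of 83 at 20 nM, and for 1 and 4 of the 13 mitochondrial subunits, against 7499 and 7465 of the 14943 genes. These shifts were common to many members and small for each. In CPM, all 20 nM libraries lay above all Ctrl libraries for 22 of 83 nuclear subunits, where 15.2% of all genes did so, and below them for 0, where 13.7% of all genes did so. At 10 nM, 13 nuclear subunits lay fully above Ctrl and 1 fully below, where 10.1% and 9.9% of all genes did so.

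**Figure D1:**
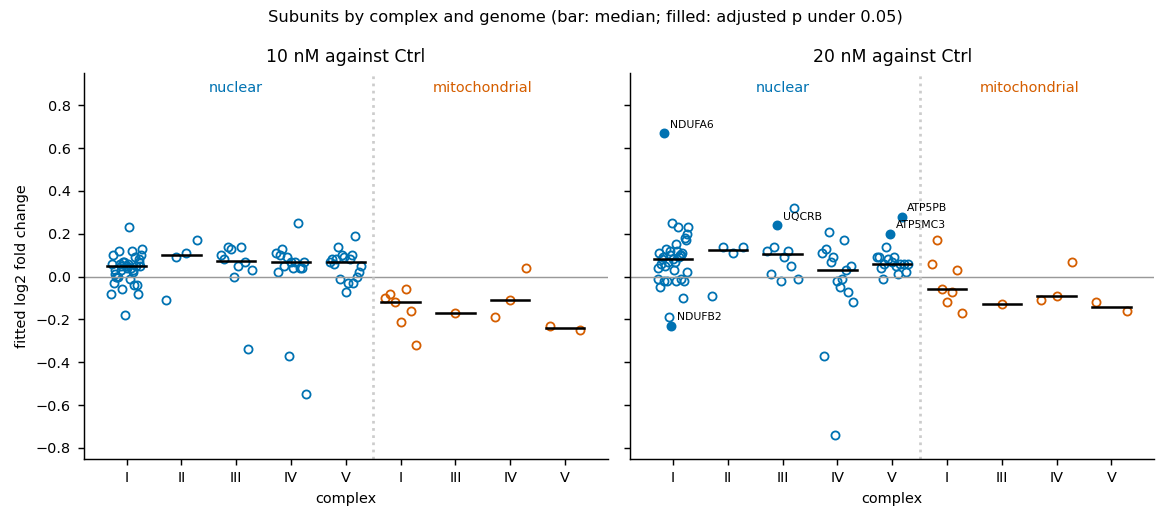
Fitted log2 fold change (y axis) of each subunit by complex (x axis) at 10 nM and 20 nM against Ctrl, with nuclear subunits in blue and mitochondrial ones in orange. Filled points passed an edgeR adjusted p of 0.05 and bars are medians. At both concentrations the nuclear medians lie above 0 in each complex and the mitochondrial medians below 0, and NDUFA6 stands highest at 20 nM.

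NDUFA6, an accessory subunit of complex I that binds the mitochondrial acyl carrier protein NDUFAB1, changed most among the members called. Its levels were 11.6, 14.6 and 12.7 CPM in Ctrl, 13.4, 13.9 and 13.4 CPM at 10 nM and 20.0, 22.4 and 33.5 CPM at 20 nM. Every 20 nM library lay above the other 6, while the 10 nM libraries fell within the Ctrl range. The log2 fold change was 0.67 (SE 0.098, adjusted p = 0.000769) at 20 nM, 0.67 against 10 nM (adjusted p = 0.00226) and 0.00 (SE 0.091) at 10 nM. Without replicate 3 of the 20 nM group the value was 0.72 (adjusted p = 0.000568). The table gives the identifier ENSG00000272765 for this gene, which was not in GENCODE 44. The symbol matched ENSG00000184983 at chr22:42085526-42090884 on the minus strand. SMDT1, its neighbour on the other strand, had 11.2 to 13.6 CPM in Ctrl and 12.3 to 15.5 CPM at 20 nM (log2 fold change -0.03, adjusted p = 0.894). NDUFA6 holds none of these matches in its longest or canonical 3′ UTR.

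Of the other nuclear complex I subunits, 6 rose in the dose trend by edgeR: NDUFS7, NDUFS8, NDUFV2, NDUFC2, NDUFA11 and NDUFB9. NDUFS7 and NDUFS8 carry iron-sulfur clusters of the arm that hands electrons to ubiquinone, and NDUFV2 carries one of the NADH-oxidising part. NDUFS7 had 78.6, 77.5 and 76.0 CPM in Ctrl, 87.7, 81.0 and 86.7 CPM at 10 nM and 87.3, 90.8 and 131 CPM at 20 nM. Both mimic groups lay above Ctrl without overlap, and its trend was 0.25 (SE 0.056, adjusted p = 0.00688). NDUFS8 had 57.4, 60.1 and 61.8 CPM in Ctrl and 68.0, 68.0 and 75.8 CPM at 20 nM, with no overlap (trend 0.19, SE 0.050, adjusted p = 0.0184). NDUFV2 had 44.4, 45.2 and 44.1 CPM in Ctrl and 51.0, 52.4 and 48.8 CPM at 20 nM (trend 0.20, SE 0.064, adjusted p = 0.0466). The NDUFV2 call was held in 4 of 16 alternatives and missed the threshold with the replicate number as a block (0.19, adjusted p = 0.0758).

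NDUFC2, NDUFA11 and NDUFB9, accessory subunits of the membrane arm, were called with a large part of the rise in 1 library. NDUFC2 had 70.9, 69.4 and 74.9 CPM in Ctrl and 77.5, 80.5 and 142 CPM at 20 nM. Its trend of 0.21 (adjusted p = 0.0128) was 0.13 without 20 nM replicate 3 (adjusted p = 0.08). NDUFA11 (0.16, adjusted p = 0.0363) and NDUFB9 (0.17, adjusted p = 0.0417) likewise missed the threshold without it, at adjusted p = 0.0955 and 0.133. Leaving out 1 library at a time, the calls of NDUFC2, NDUFA11 and NDUFB9 held in 6, 3 and 4 of 9 fits. The 20 nM libraries of all 3 genes lay above their Ctrl libraries without overlap, as did those of 15.2% of all genes. The calls came from these same values.

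NDUFB2, another accessory subunit, was the member called lower at 20 nM, with a log2 fold change of -0.23 (SE 0.060, adjusted p = 0.0218). Its levels were 91.3, 90.2 and 93.6 CPM in Ctrl, 86.3, 83.5 and 88.1 CPM at 10 nM and 76.1, 85.3 and 141.5 CPM at 20 nM. Replicates 1 and 2 at 20 nM lay below Ctrl and replicate 3 far above it, so the direction depended on how the fit treated that library. It was -0.19 without replicate 3 (adjusted p = 0.027), but 0.14 with no surrogate variable (adjusted p = 0.657) and 0.10 with the replicate number as a block (adjusted p = 0.677). Its canonical 3′ UTR holds the 8-mer printed above.

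In complex II, none of the 4 genes was called in any comparison. SDHA, the subunit that oxidises succinate, had the lowest fold change at 20 nM, -0.09 (SE 0.045, adjusted p = 0.216), with 91.7, 91.7 and 92.9 CPM in Ctrl and 87.1, 89.3 and 113 CPM at 20 nM. SDHD, a membrane anchor, had the highest, 0.14 (SE 0.11, adjusted p = 0.443), with 41.6, 46.9 and 40.0 CPM against 43.7, 49.6 and 29.2 CPM. The groups overlapped for both. The summed level of the complex was 258 to 269 CPM in Ctrl and 266 to 286 CPM at 20 nM.

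In complex III, CYC1 and UQCRB rose in the dose trend. CYC1 is cytochrome c1, which delivers electrons to cytochrome c. It had 123, 123 and 132 CPM in Ctrl, 141, 137 and 146 CPM at 10 nM and 138, 144 and 220.5 CPM at 20 nM. Each mimic library lay above each Ctrl library, and the trend was 0.22 (SE 0.048, adjusted p = 0.00666) with all libraries and 0.16 (adjusted p = 0.0431) without 20 nM replicate 3. UQCRB, an accessory subunit near the ubiquinone site, had 65.7, 70.3 and 71.1 CPM in Ctrl, 72.5, 78.4 and 72.9 CPM at 10 nM and 80.3, 82.5 and 71.9 CPM at 20 nM. Again no mimic library overlapped Ctrl (0.24 at 20 nM, SE 0.059, adjusted p = 0.0184). With the replicate number as a block, UQCRB missed the threshold at 20 nM (0.18, adjusted p = 0.0961). The highest and lowest fold changes at 20 nM among nuclear members, neither of them called, were 0.32 for UQCRHL, a gene near-identical to UQCRH that stayed under 1 CPM, and -0.02 for UQCRC1. Reads of UQCRHL and UQCRH may have been split between them.

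In complex IV, none of the 15 nuclear genes was called. COX5B, a zinc-binding subunit, had the highest fold change at 20 nM, 0.21 (SE 0.11, adjusted p = 0.207). It had 79.8, 83.6 and 85.7 CPM in Ctrl and 88.4, 103 and 57.6 CPM at 20 nM, where replicate 3 lay below Ctrl and the others above it. COX6B2, a testis form of COX6B, had the lowest, -0.74 (SE 0.32, adjusted p = 0.155), at 1.64 to 2.51 CPM in Ctrl and 1.20 to 1.82 CPM at 20 nM, and it holds a 7-mer match. COX4I1, the main form of subunit 4, lay above Ctrl without overlap in both mimic groups, at 222 to 234 CPM, 242 to 253 CPM and 242.5 to 261 CPM, yet missed the threshold (trend 0.13, adjusted p = 0.0679). COX7B stood at 16.4 CPM in 20 nM replicate 3, where the other 8 libraries had 39.7 to 49.4 CPM, and its fitted change at 20 nM was 0.17 (adjusted p = 0.461).

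In complex V, ATP5MC3 and ATP5PB rose at 20 nM, and these with ATP5MC1 and ATP5MF rose in the dose trend. ATP5MC1 and ATP5MC3 encode the same c subunit of the rotating ring, with different transit peptides. ATP5MC3 had 91.1, 93.4 and 97.0 CPM in Ctrl, 95.4, 104 and 99.9 CPM at 10 nM and 106, 111 and 106 CPM at 20 nM. The 20 nM libraries were all higher than Ctrl and close to each other (0.20, SE 0.054, adjusted p = 0.027). ATP5MC1 had 62.9, 58.4 and 62.2 CPM in Ctrl, 62.4, 62.2 and 66.2 CPM at 10 nM and 68.8, 68.6 and 103 CPM at 20 nM (trend 0.21, SE 0.055, adjusted p = 0.0181). Replicate 3 was the high library, and without it the trend was 0.15 (adjusted p = 0.056).

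ATP5PB, the b subunit of the peripheral stalk, had 94.7, 96.3 and 99.8 CPM in Ctrl, 103, 104 and 115 CPM at 10 nM and 118, 116 and 85.4 CPM at 20 nM. Here replicate 3 was the low library, and the fold change at 20 nM was 0.28 (SE 0.072, adjusted p = 0.0214). It was 0.27 without that library (adjusted p = 0.00112) and 0.13 with the replicate number as a block (adjusted p = 0.468). The dose trend of ATP5PB was 0.23 (adjusted p = 0.0332). Leaving out 1 library at a time, that trend was called in 5 of 9 fits. ATP5MF, the f subunit, had 105, 106.8 and 120.5 CPM in Ctrl, 111, 114 and 123 CPM at 10 nM and 118, 129 and 219.5 CPM at 20 nM. Its trend of 0.21 (adjusted p = 0.00982) was 0.13 without replicate 3 (adjusted p = 0.135). The lowest fold change of a nuclear member at 20 nM was -0.01, for ATP5F1D, the delta subunit. The catalytic and abundant ATP5F1B had 652 to 673 CPM in Ctrl and 699 to 718 CPM at 20 nM, without overlap, and was not called (0.09, adjusted p = 0.186).

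**Figure D2:**
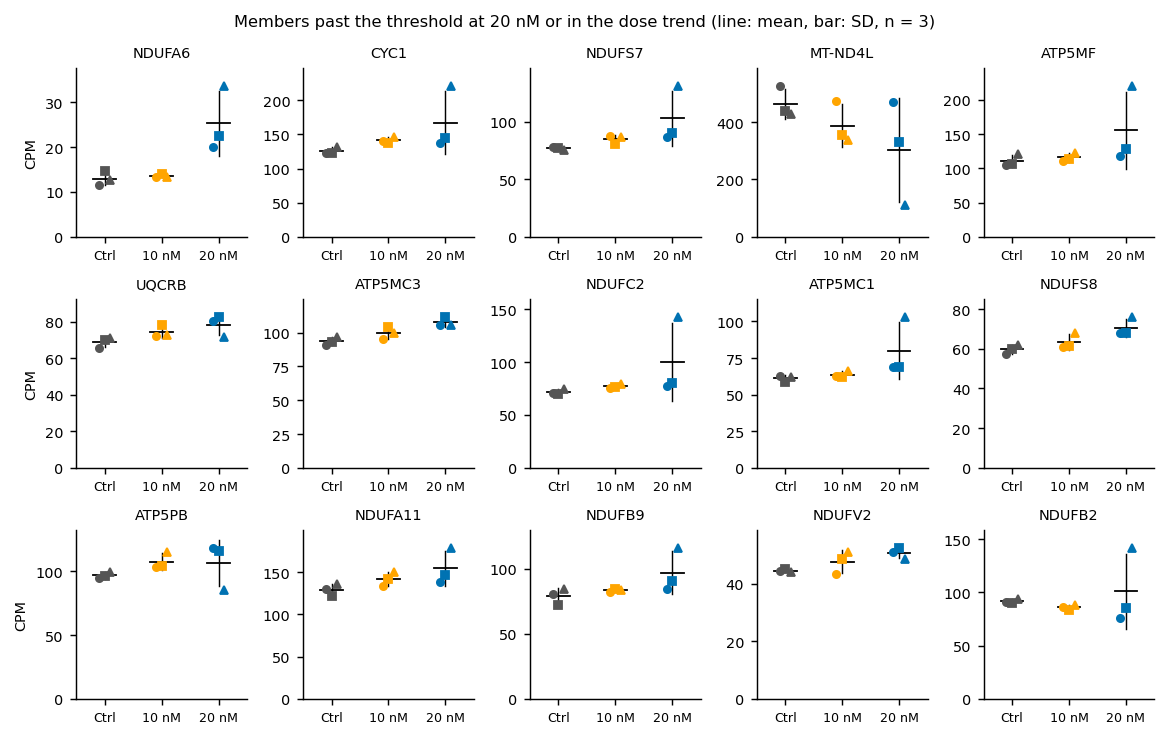
CPM (y axis, from 0) of the 15 members called at 20 nM or in the dose trend, by group (x axis). Circles, squares and triangles are replicates 1, 2 and 3, lines are means and bars SD (n = 3). The NDUFA6 points at 20 nM, 20.0 to 33.5 CPM, lie above all others, and the triangle at 20 nM departs from the other replicates for MT-ND4L, ATP5MF, NDUFC2 and NDUFB2.

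Counted over the whole group, 11 nuclear subunits rose and 1 fell at 20 nM when replicate 3 of that group was left out, against 17.8% of all genes. These included the 5 called with all libraries. The 7 added were ATP5MC1, COX5B, CYC1, NDUFS7, NDUFS8, NDUFV2 and NDUFV3, all higher. In the dose trend the count without that library was 8 higher and 1 lower, against 17.0% of all genes, and the lower one was NDUFB2 in place of MT-ND4L. Over all genes, 1391 were then called higher and 1150 lower. With the replicate number as a block, 7 members were called at 20 nM, against 13.6% of all genes, and 13 in the dose trend, against 16.4%. NDUFA6 was called in each of these fits. COX6A1, a nuclear complex IV subunit, was called at 20 nM under the block (0.22, adjusted p = 0.0394) and not with the surrogate variable (0.07, adjusted p = 0.455).

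All 13 mitochondrial mRNAs lay below the same-numbered Ctrl library in each of the 3 pairs at 10 nM. Of all genes, 50.5%, 49.9% and 50.5% were higher than in Ctrl in these pairs. At 20 nM, 3 of 13 were higher than in Ctrl in replicate 1, 0 in replicate 2 and 7 in replicate 3. The shares of all genes were 50.3%, 50.3% and 50.8%, so that of replicate 3 was near the share of all genes. These mRNAs are cut out of long precursors, so the 13 may not vary independently. None was called at 10 nM or 20 nM in the fit with the surrogate variable, where the smallest adjusted p values were 0.306 and 0.523. The spread between replicates was wider than for nuclear members: in the order Ctrl, 10 nM and 20 nM, the median SD of log2 CPM was 0.16, 0.22 and 0.32, against 0.058, 0.069 and 0.15 for nuclear subunits. Replicate 1 was the highest library of its group for these mRNAs, in Ctrl as well as with the mimic, except for MT-ND3 in Ctrl and for MT-ATP6, MT-ATP8, MT-ND3 and MT-ND6 at 20 nM.

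Compared per kilobase of transcript in Ctrl, the catalytic complex IV mRNAs MT-CO1, MT-CO2 and MT-CO3 stood at 7110, 6150 and 5790 CPM per kilobase. MT-ATP6, the proton channel of complex V, followed at 5230. Among the complex I mRNAs, MT-ND4 stood at 3320 and MT-ND2 at 2780, MT-ND4L at 1560, MT-ND1 at 1530 and MT-ND3 at 1410, and MT-ND5 at 969. MT-ND6, the only member transcribed from the other strand, had the lowest value, 573. Only polyadenylated RNA was sequenced, and how fully each of these mRNAs was captured was not measured, so its low value may not be its abundance. MT-CYB and MT-ATP8 lay close to each other, at 2150 and 2200. The complex IV mRNAs thus had the highest means, but MT-ATP6 was below MT-CO3 by less than its own spread between Ctrl libraries. MT-ND4L, MT-ND1 and MT-ND3, like MT-CYB and MT-ATP8, also differed by less than the spread of the Ctrl libraries. MT-ATP8 and MT-ATP6 overlap in the annotation, so the counting had to divide their reads.

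MT-ND4, a proton-pumping subunit of complex I, had 5550, 4128 and 4053 CPM in Ctrl, 4764, 3525 and 3312 CPM at 10 nM and 4812, 3099 and 3678 CPM at 20 nM. MT-CYB, the cytochrome b of complex III, had 2736, 2355 and 2264 CPM in Ctrl, 2517, 2032 and 1888 CPM at 10 nM and 2496, 1774 and 1988 CPM at 20 nM. Both lay below Ctrl in all 6 same-numbered pairs, although the groups overlapped. Both were called lower at 20 nM with the replicate number as a block, MT-ND4 at -0.25 (adjusted p = 0.0317) and MT-CYB at -0.24 (adjusted p = 0.0348). With the surrogate variable in place of the block they were -0.12 (SE 0.18, adjusted p = 0.726) and -0.13 (SE 0.13, adjusted p = 0.567).

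The other complex IV and V mRNAs varied widely within each group. MT-CO1 had 12390, 10460 and 10010 CPM in Ctrl, 11090, 9291 and 8553 CPM at 10 nM and 11320, 8178 and 11190 CPM at 20 nM. MT-ATP6 had 4279, 3229 and 3172 CPM in Ctrl, 3751, 2796 and 2646 CPM at 10 nM and 3752, 2467 and 4024 CPM at 20 nM. The groups overlapped for both. The fitted changes at 10 nM were -0.19 for MT-CO1, -0.11 for MT-CO2, 0.04 for MT-CO3, -0.23 for MT-ATP6 and -0.25 for MT-ATP8. At 20 nM they were -0.11, -0.09, 0.07, -0.12 and -0.16, none called.

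For complex I, the fitted changes at 10 nM ran from -0.32 for MT-ND6 to -0.06 for MT-ND4L, with MT-ND1, MT-ND2, MT-ND3, MT-ND4 and MT-ND5 at -0.10, -0.08, -0.12, -0.21 and -0.16. At 20 nM they ran from -0.17 for MT-ND6 to 0.17 for MT-ND2, with MT-ND1, MT-ND3 and MT-ND5 at 0.06, -0.06 and 0.03. MT-ND3 was the mitochondrial mRNA whose 10 nM libraries, 469, 466 and 462 CPM, all lay below Ctrl, 492, 473 and 501 CPM, but it was not called (adjusted p = 0.313). Its 20 nM libraries, 483, 467 and 667 CPM, spanned the Ctrl range.

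**Figure D3:**
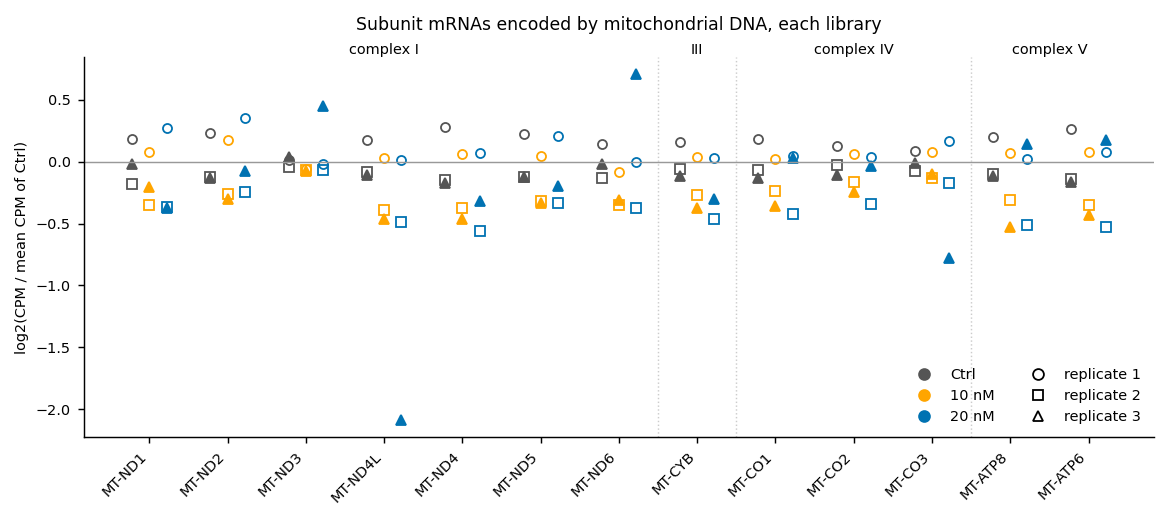
log2 ratio of CPM to the Ctrl mean (y axis) for the 13 mitochondrial mRNAs (x axis, by complex) in each of the 9 libraries, with groups by colour and replicates by symbol. Replicate 1 lies highest for most genes in each group, the 10 nM points lie below the same symbol of Ctrl for all 13, and the 20 nM triangle leaves the other points for MT-ND4L, MT-ND6, MT-ND3 and MT-CO3.

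MT-ND4L, a small complex I subunit, was the member called lower in the dose trend (-0.35, SE 0.078, adjusted p = 0.00749). It had 524, 438 and 429 CPM in Ctrl, 473, 353 and 337 CPM at 10 nM and 469, 332 and 109 CPM at 20 nM. The call rested on the 20 nM library of replicate 3: without it the trend was -0.18 (adjusted p = 0.266), and with the replicate number as a block it was -0.77 (adjusted p = 0.0835). MT-ND4L and MT-ND4 are cut as 1 mRNA and overlap by a few bases in the annotation, so the counting had to divide their reads. MT-ND4L took 8.63% to 9.67% of their summed CPM in 8 libraries and 2.89% in 20 nM replicate 3. The summed level itself was 6074, 4566 and 4482 CPM in Ctrl and 5281, 3430 and 3787 CPM at 20 nM, lower than the same-numbered Ctrl in all 3 pairs, as at 10 nM.

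In that library MT-ND6 stood at 490.1 CPM against 299.8 and 232.5 CPM in the other 20 nM libraries, MT-ND3 at 667 CPM against 483 and 467 CPM, and MT-CO3 at 2649 CPM against 5094 and 4018 CPM. Of 83 nuclear subunits, 15 (18.1%) differed there by over 0.5 in log2 from the mean of the other 20 nM libraries. The share of all matched genes was 17.6%. Between replicates 1 and 2, 1 of 83 did so, against 7.17% of all matched genes. Of the 13 mitochondrial subunits, 3 did so for replicate 3 and 6 between replicates 1 and 2. Across the 83 nuclear subunits, the Pearson correlation of the replicate 3 departure with the GC content of the transcript was 0.35. Across all 14859 matched genes it was 0.48. These describe 1 library over genes, which are not independent replicates.

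**Figure D4:**
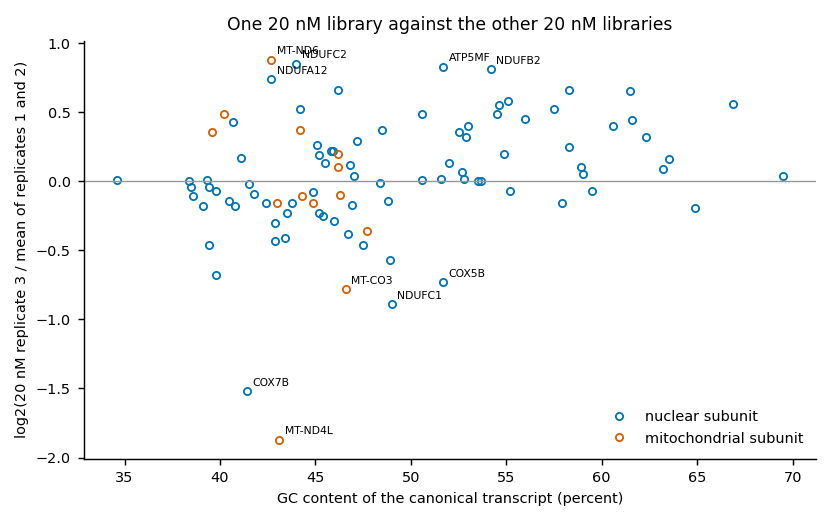
log2 ratio of 20 nM replicate 3 to the mean of replicates 1 and 2 (y axis) against the GC content of the canonical transcript in percent (x axis) for the 96 subunits, nuclear in blue and mitochondrial in orange. MT-ND4L at -1.87 and COX7B at -1.52 lie lowest, and MT-ND6 at 0.88 and NDUFC2 at 0.85 highest.

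As shares of a library, mitochondrial subunit counts were lower and nuclear subunit counts higher than in the same-numbered Ctrl library in all 6 comparisons. Here and below, the 6 comparisons use the same 3 Ctrl libraries for both mimic groups and are not independent. The mitochondrial share was 4.35%, 3.60% and 3.57% in Ctrl, 3.98%, 3.21% and 3.07% at 10 nM and 4.10%, 2.93% and 3.35% at 20 nM. Its mean was 3.84% ± 0.44 (SD, n = 3), 3.42% ± 0.489 and 3.46% ± 0.595, so that the differences from Ctrl, -0.425 and -0.385 percentage points, were within 1 SD. Without Ctrl replicate 1 they were -0.171 and -0.131. The 10 nM difference was -0.704 and -0.25 without 10 nM replicates 1 and 3 in turn, and the 20 nM difference -0.706 and -0.119 without 20 nM replicates 1 and 2 in turn. Within numbers, the 10 nM libraries were lower by 0.374, 0.394 and 0.506 percentage points. The 20 nM differences were -0.251, -0.676 and -0.228. These shares use unscaled library totals. With TMM-scaled totals the differences were -0.371, -0.383 and -0.472 at 10 nM. At 20 nM they were -0.233, -0.658 and -0.0454, so that of replicate 3 was small. The nuclear share was 0.729%, 0.75% and 0.771% in Ctrl, 0.759%, 0.788% and 0.81% at 10 nM and 0.766%, 0.815% and 0.832% at 20 nM. Within each replicate number it was lowest in Ctrl and highest at 20 nM, while the groups overlapped.

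The mean log2 CPM of nuclear subunits minus that of mitochondrial subunits, which does not depend on how a library is scaled, was -5.11, -4.80 and -4.78 in Ctrl, -4.95, -4.58 and -4.47 at 10 nM and -4.96, -4.40 and -4.55 at 20 nM. On average the 10 nM libraries exceeded Ctrl by 0.227 and the 20 nM libraries by 0.257, within the SD of those groups, 0.25 and 0.292, and above that of Ctrl, 0.185. Single libraries moved these values: without Ctrl replicate 1 they were 0.121 and 0.151, without 10 nM replicates 1 and 3 in turn the former was 0.368 and 0.129, and without 20 nM replicates 1 and 2 in turn the latter was 0.42 and 0.138. Within numbers it was positive in all 6 comparisons, 0.16, 0.213 and 0.31 at 10 nM and 0.145, 0.397 and 0.231 at 20 nM.

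**Figure D5:**
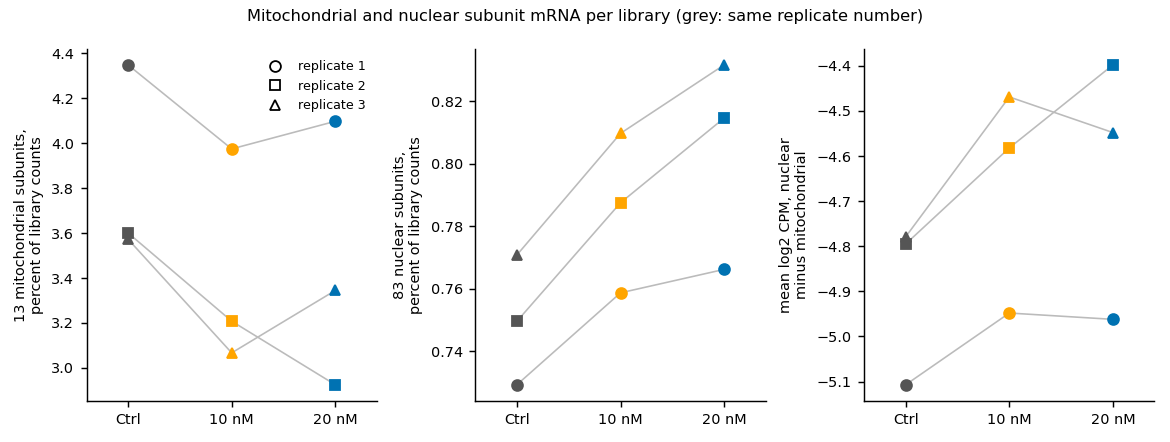
Percent of library counts in the 13 mitochondrial subunits (left), in the 83 nuclear subunits (middle) and the mean log2 CPM difference, nuclear minus mitochondrial (right), for each library by group (x axes). Grey lines join libraries of the same replicate number. The axes do not start at 0. The mitochondrial share is below Ctrl and the nuclear share above it along every line.

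By complex, the summed nuclear level was higher than in the same-numbered Ctrl in all 6 comparisons for complexes I, III, IV and V, and in 4 of 6 for complex II. For complex I it was 2370, 2408 and 2459 CPM in Ctrl, 2442, 2488 and 2591 CPM at 10 nM and 2477, 2614 and 3014 CPM at 20 nM. For complex V it was 2420, 2471 and 2519 CPM in Ctrl, 2554, 2626 and 2656 CPM at 10 nM and 2591, 2706 and 2841 CPM at 20 nM, without overlap between Ctrl and either mimic group. Complex IV did not share the rise gene by gene. Its nuclear median log2 fold change was 0.066 at 10 nM, 0.032 at 20 nM and -0.012 in the dose trend. Of its 15 genes, 13, 8 and 7 were positive. The trend medians of complexes I, III and V were 0.084, 0.084 and 0.093. In 20 nM replicate 3 the complex IV sum exceeded Ctrl by only 11.1 CPM. The summed mitochondrial level was below the same-numbered Ctrl in all 6 comparisons for complexes I, III and IV, and in 5 of 6 for complex V, whose 20 nM replicate 3 was higher (4526 CPM against 3591 CPM).

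Helpers of the pathway were read from lists of genes that are not subunits. Their counts in the dose trend stand beside 9.92% of all genes called higher and 7.64% called lower. Of 18 complex I assembly factors, 2 fell in the dose trend and 0 rose, and under the block 2 fell and 1 rose. NDUFAF6 fell from 24.4, 24.9 and 23.5 CPM in Ctrl to 18.8, 19.0 and 19.3 CPM at 20 nM without overlap (trend -0.35, SE 0.070, adjusted p = 0.00401). NUBPL, which delivers iron-sulfur clusters, fell from 9.01, 9.57 and 10.2 CPM to 6.19, 6.54 and 7.78 CPM (-0.56, SE 0.13, adjusted p = 0.00905). Of 10 assembly factors of complexes II and III, BCS1L rose (0.23, adjusted p = 0.0292, but 0.17 and 0.112 without 20 nM replicate 3) and UQCC3 fell (-0.26, adjusted p = 0.0363), and UQCC3 was not called with the replicate number as a block (adjusted p = 0.768).

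Of 27 complex IV assembly factors, COA7 (0.26, adjusted p = 0.00983) and SCO2, a copper chaperone (0.35, adjusted p = 0.0273), rose and 0 fell. Without 20 nM replicate 3 SCO2 was no longer called (0.31, adjusted p = 0.0534) and COA8 was called lower (-0.30, adjusted p = 0.0383). Of 5 genes for ATP synthase assembly and inhibition, ATPAF1, a chaperone of the F1 part, rose (0.18, adjusted p = 0.0151). Of 15 genes for the mobile electron carriers, PDSS2, which makes the side chain of ubiquinone, fell from 16.4, 15.6 and 16.0 CPM to 12.1, 13.4 and 10.3 CPM (-0.36, SE 0.089, adjusted p = 0.0121). CYCS, cytochrome c itself, was not called (0.08, adjusted p = 0.419).

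Of 27 tested genes for mitochondrial transcription, replication and RNA stability, 5 rose in the dose trend and 0 fell, with a median of 0.1. Under the block 4 rose, and without 20 nM replicate 3 again 5, with TFAM (0.18, adjusted p = 0.0266) in place of HSD17B10 (0.10, adjusted p = 0.176). LRPPRC, which stabilises mitochondrial mRNAs, had 281, 287 and 279 CPM in Ctrl, 291, 315 and 297 CPM at 10 nM and 358, 354 and 305 CPM at 20 nM (trend 0.31, SE 0.048, adjusted p = 0.000695). Both mimic groups lay above Ctrl without overlap. POLRMT, the mitochondrial RNA polymerase (0.22, adjusted p = 0.00834), and TWNK, the helicase of mitochondrial DNA (0.21, adjusted p = 0.0135), rose as well. So did HSD17B10 (0.16, adjusted p = 0.0218) and FASTKD2 (0.25, adjusted p = 0.0212). FASTKD2 had 36.5, 36.3 and 36.0 CPM in Ctrl and 43.2, 44.8 and 33.9 CPM at 20 nM, and was not called under the block (adjusted p = 0.23). Among the list genes named here, a 7-mer match was found in NUBPL and PDSS2, which fell, in LRPPRC, TWNK and ATPAF1, which rose, and in CYCS. Of 9 tested regulators of nuclear OXPHOS genes, the coactivator PPARGC1B rose, from 5.58, 4.65 and 4.21 CPM in Ctrl to 8.50, 8.39 and 7.82 CPM at 20 nM (0.81, SE 0.14, adjusted p = 0.00123). NRF1 (-0.12, adjusted p = 0.247) and GABPA (0.11, adjusted p = 0.232) were not called. In the same trend 4 of the 11 neuroblastoma markers were called lower and 0 higher, where 7.64% and 9.92% of all genes were. Among those lower were ISL1 (-0.29, adjusted p = 0.00162) and STMN2 (-0.32, adjusted p = 0.00237). With the replicate number as a block, 3 markers were called lower and 3 higher. The part of the list genes and markers in the subunit values was not tested.

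Of the 11 members with a 7-mer or 8-mer match in the longest or the canonical 3′ UTR, NDUFB2 was called lower, at 20 nM, with the dependence on the fit given above. None of the other 10 was called lower in any comparison. NDUFS7, UQCRB and NDUFB9 rose in the dose trend, as given above. NDUFA9, with an 8-mer, had 58.4, 58.1 and 55.4 CPM in Ctrl, 58.7, 55.7 and 58.1 CPM at 10 nM and 56.0, 55.9 and 47.7 CPM at 20 nM, and its trend was -0.05 (adjusted p = 0.562). The other trends were 0.10 for SDHC (adjusted p = 0.325), 0.22 for NDUFV3 (adjusted p = 0.0709), 0.09 for NDUFS1 (adjusted p = 0.273), 0.08 for ATP5F1E (adjusted p = 0.589), 0.02 for NDUFB5 (adjusted p = 0.795) and -0.68 for COX6B2 (adjusted p = 0.111). Of these, COX6B2 had the lowest value and the lowest level. A match is a run of letters and not a site shown to be bound.

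The 4 rows kept apart were not called. ATP5MF-PTCD1, a read-through from ATP5MF, had 12.7 to 14.1 CPM in Ctrl, 14.4 to 18.0 CPM at 10 nM and 10.9 to 14.1 CPM at 20 nM. NDUFC2-KCTD14, NDUFV2P1 and UQCRFS1P1 stayed below 3 CPM in every library. Salmon divides reads that fit several transcripts, so values of subunit genes with pseudogenes or read-through partners carry that uncertainty.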

How the data were processed

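Polyadenylated RNA of 9 SH-Sy5y libraries, 3 per group, was sequenced. The deposited values are estimated counts per gene: the authors mapped reads to GRCh38.p13 transcripts (Ensembl 107) with Salmon and summed them to genes by symbol. RNA of some samples may have been pooled from wells, and use of strand was not stated. The authors' tables of corrected values and of test results were not used.

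Of the values, 88.8% were not whole and were rounded. filterByExpr removed 0 of 14943 genes. edgeR 4.0.16 (TMM, quasi-likelihood test, R 4.3.3, limma 3.58.1) was fitted over all libraries with 1 surrogate variable from sva 3.50.0, and p-values were Benjamini-Hochberg adjusted over all genes. Log2 CPM used a prior count of 2. The scripts were tested on simulated data. Alternatives were DESeq2 1.42.0, RLE scaling, library totals, a minimum mean of 1 CPM, 0 or 1 more surrogate variables, the replicate number as a block, and leaving out each library. Libraries of the same number deviated together (r of deviations from group means 0.177, 0.142 and 0.185 between Ctrl and 10 nM, 0.116, 0.107 and 0.116 between Ctrl and 20 nM), so the numbers were taken to pair these groups; the labels give the numbers only. Between 10 nM and 20 nM r was 0.174, 0.0288 and 0.176.

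The members and gene lists were chosen with earlier results of these data known. Named were all mitochondrial members, in each comparison the 10 called members of smallest p in each direction, the largest rise and fall per complex at 20 nM, members with a 7-mer or 8-mer seed match (canonical 3′ UTRs were added after values were seen), and up to 3 called genes per list. Members called in the dose trend beyond the first 10, and COX4I1, COX7B, COX6A1, ATP5F1B, SMDT1, CYCS, NRF1, GABPA, FASTKD2, HSD17B10, COA8 and TFAM, were named after their values were seen. Of the 100 members, 96 were matched to GENCODE 44 by identifier and 4 by symbol. The genes NDUFA6-DT and NDUFB2-AS1, neighbours of members, were not analysed here.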

Additional observations from a re-analysis of the deposited data

How the results depend on the processing

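With no surrogate variable, 1 member was called at 20 nM, 0 between 20 nM and 10 nM and 1 in the dose trend. Leaving out 1 library at a time gave 1 to 12 members at 20 nM and 4 to 31 in the dose trend. When replicate numbers entered as a block and the surrogate variable was dropped, 0 members were called at 10 nM, 7 at 20 nM, 1 between 20 nM and 10 nM and 13 in the dose trend. NDUFB2 at 20 nM turned from lower to 0.14 with no surrogate variable and to 0.103 with the block, neither called. The cause was not tested. At 10 nM the count was 0 in all 16 alternatives. NDUFA6 was called in 16 of 16 alternatives at 20 nM (0.598 to 0.969). Leaving out 1 library moved the difference in mitochondrial share between -0.704 and -0.171 percentage points at 10 nM and between -0.706 and -0.119 at 20 nM, and that in nuclear minus mitochondrial level between 0.121 and 0.368 and between 0.138 and 0.42. Over all genes, calls at 10 nM went from 97 to 5 with no surrogate variable, 3 with the block and 218 with DESeq2, at 20 nM from 2074 to 954 with no surrogate variable, between 20 nM and 10 nM from 417 to 67 and, with the block, 124, and in the dose trend from 2624 to 1236 with no surrogate variable. Leaving out 1 library gave 34 to 160, 1074 to 2656, 111 to 462 and 1369 to 3318. The 3 libraries a group limit the precision of each value.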
